A study of Hipposideros armiger with 2 samples.

Results

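The genes described here are factors of blood coagulation and fibrinolysis, measured by RNA sequencing in 2 libraries labelled liver from the great Himalayan leaf-nosed bat, Hipposideros armiger. The members were chosen from a list of 40 gene symbols, and an assembled gene belonged to a member when its protein match, written in capitals, equalled the symbol. Of the 40 symbols, 39 were found, among 12783 distinct names in the tables. They covered 111 of 55378 assembled genes. No assembled gene matched F11 (factor XI) by name, so it was not analysed here.

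Both libraries come from wild-type animals of the CW cave with the treatment heavy metals exposure. They form 1 group, with replicate 1 and replicate 2 numbered as in the sample titles; an adult male is given for replicate 2, and the study's design text speaks of adult males from both of its caves. Other samples of the study were not analysed here, and there is no unexposed group beside these libraries. All values are therefore a description of 2 libraries, and each ratio sets 1 library against 1 library without a p-value.

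Blood coagulation is a cascade in which circulating proenzymes are cleaved in turn until thrombin converts fibrinogen to fibrin. Tissue factor on cells outside the vessel starts it, cofactors speed it, and serpins, the protein C pathway and tissue factor pathway inhibitor restrain it. Fibrinolysis removes the clot through plasmin, which is cut from plasminogen. Hepatocytes make most of the circulating proenzymes, fibrinogen and plasma inhibitors, whereas endothelial cells make von Willebrand factor, thrombomodulin and tissue plasminogen activator. In mammals factor VIII comes largely from endothelium, including that of the liver sinusoids.

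The libraries held 18741210 expected counts in replicate 1 and 18778331 in replicate 2, of which the 39 genes took 0.288% and 0.127%. The tissue label was checked against marker lists, and the libraries stood apart from each other. All 18 hepatocyte markers were found, and they summed to 13766 TPM (transcripts scaled to a fixed total per library) in replicate 1, against 449 TPM in replicate 2, led by ALB and APOC3. All 12 lung epithelium markers were also found, and they summed to 12486 TPM in replicate 1, against 19871 TPM in replicate 2, led by SCGB3A1 and SFTPC. General endothelial markers, 11 of 12 found, summed to 371 and 550 TPM, and liver sinusoidal endothelium markers, 6 of 8 found, to 152 and 73.7 TPM. Both libraries labelled liver thus held lung epithelium transcripts, and in replicate 2 these summed far above the hepatocyte markers. Which tissue was sequenced was not tested, so the values below belong to these libraries and not to liver as such. In bulk RNA, fewer cells of a type and less RNA per cell cannot be told apart.

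Coagulation genes split by their main source. The 23 hepatocyte-made factors found summed to 2123 TPM in replicate 1, against 217 TPM in replicate 2. Single entries weighed on both sums: without 1 KNG1 assembled gene of 446 bases they were 1185 and 199 TPM, and without SERPINA5 they were 2035 and 95.6 TPM. The 7 endothelial or epithelial factors (VWF, F8, THBD, PROCR, TFPI, F3 and PLAT) summed to 224 TPM in replicate 1, against 319 TPM in replicate 2. A further 9 genes, which have other or several sources, summed to 199 and 147 TPM. Hepatocyte-made factors thus held 83.4% of the summed TPM of all 39 genes in replicate 1 and 31.8% in replicate 2, while the endothelial or epithelial factors held 8.78% and 46.7%. Without SERPINA5 the hepatocyte-made share was 82.8% in replicate 1 and 17.0% in replicate 2. By counts the hepatocyte-made share was 69.5% in replicate 1 and 21.0% in replicate 2.

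**Figure D1:**
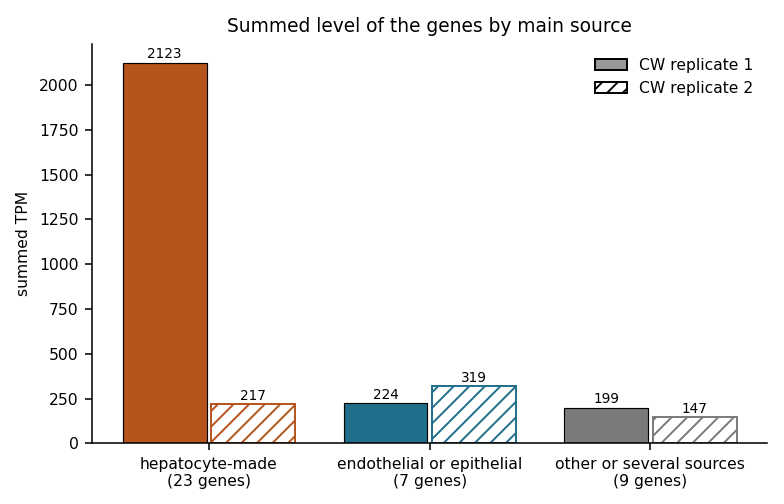
Bars give TPM summed over the genes of each source class, filled for CW replicate 1 and hatched for CW replicate 2, on a linear axis from 0. The hepatocyte-made bar is 2123 TPM in replicate 1, against 217 TPM in replicate 2, while the endothelial or epithelial bars are 224 and 319 TPM.

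Ratios were taken as replicate 1 over replicate 2 on counts summed per name, scaled by TMM, with the median of all tested names set to 1. A gene was called when it differed by more than 2-fold on the log2(CPM + 1) scale, a pseudocount that understates the ratio of low genes; folds quoted below carry no pseudocount. All 39 genes passed the filter of a mean of at least 1 CPM, the count scaled to library size. Of these, 20 were over 2-fold higher in replicate 1 and 0 were over 2-fold lower; over all 11289 names tested, 5.16% were over 2-fold higher in replicate 1 and 0.0266% were over 2-fold lower. All 20 were hepatocyte-made, out of 23 such factors, and 19 of them were over 4-fold higher, against 2.67% of all names. Because the filter uses the mean of both libraries, a gene could pass it through replicate 1 alone. CPB2, PROZ, F9, PROC, SERPIND1, HRG and SERPINA10 did so, with 8 to 19 counts in replicate 2, each under 1 CPM there. The same filter was applied to all names. The median log2 ratio was 3.83 for the hepatocyte-made factors, -0.07 for the endothelial or epithelial factors and 0.08 for the other genes, against 0 for all names tested. Over all names, 5.19% were over 2-fold apart in either direction. None of the 16 genes outside the hepatocyte-made class was over 2-fold apart by this measure. Of all names over 2-fold apart, 99.5% were higher in replicate 1 by counts and 84.8% by summed TPM. Intervals given below are exact 95% binomial intervals that cover counting error only.

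**Figure D2:**
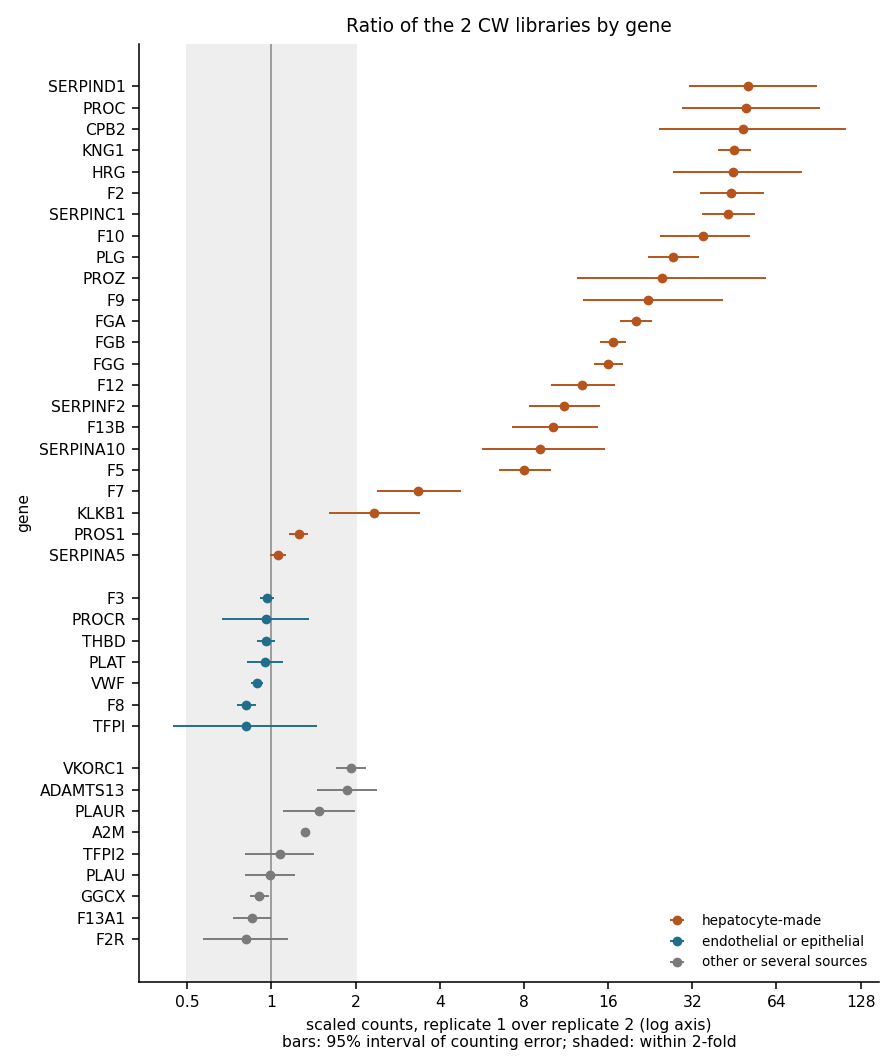
Points give the scaled count ratio of replicate 1 over replicate 2 for each of the 39 genes on a log axis, with bars for the 95% interval of counting error, and the shaded band marks ratios within 2-fold. Hepatocyte-made factors reach 50.8-fold for SERPIND1, and all 7 endothelial or epithelial factors lie between 0.812 and 0.964.

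Fibrinogen, the soluble precursor of the clot, is built from 3 chains, and all were present in both libraries. FGA had 97.6 TPM in replicate 1 and 7.10 TPM in replicate 2, from 3936 and 235 counts. FGB had 121 TPM in replicate 1 and 9.85 TPM in replicate 2, from 5055 and 365 counts. FGG had 78.8 TPM in replicate 1 and 5.67 TPM in replicate 2, from 3832 and 287 counts. Summed per name, the chains were higher in replicate 1 by similar factors. The ratio was 20.1-fold for FGA (17.6 to 23.0), 16.6-fold for FGB (14.9 to 18.5) and 16.0-fold for FGG (14.2 to 18.1). Within FGA, the assembled gene of 2113 bases had a ratio of 25.0 (21.3 to 29.6) and that of 2989 bases 10.7 (8.52 to 13.7). The proportions of the 3 chains were close in both libraries. FGA made up 32.8% of fibrinogen TPM in replicate 1 and 31.4% in replicate 2, FGB 40.7% and 43.5%, and FGG 26.5% and 25.1%.

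The vitamin K-dependent proenzymes, which need carboxylated glutamate residues to bind membranes, were all over 2-fold higher in replicate 1. Of all names tested, 5.16% were. F2 encodes prothrombin, the precursor of thrombin, and had 46.9 TPM in replicate 1 and 1.43 TPM in replicate 2, a ratio of 44.0 (34.1 to 57.7). F10, which cleaves prothrombin once activated, had 47.0 TPM in replicate 1 and 1.12 TPM in replicate 2, a ratio of 35.0 (24.6 to 51.5). F9, the factor missing in hemophilia B, had 32.0 and 1.88 TPM, a ratio of 22.3 (13.03 to 41.3). Of its TPM in replicate 2, 88.8% came from 1 assembled gene of 205 bases with 1 count. The same gene gave 42.0% in replicate 1 from 9 counts. Its gene of 3052 bases was at 3.75 and 0.21 TPM, with a ratio of 16.3 (9.30 to 31.3). By counts summed per name, F2, F10 and F9 were each over 20-fold higher in replicate 1. F7, the partner of tissue factor, had 16.2 and 1.35 TPM, and its ratio of 3.34 (2.38 to 4.77) was the lowest of the called genes. Its call rested on short assembled genes: the longest one, of 1830 bases, had 83 counts in replicate 1 and 47 in replicate 2, and with that one alone the log2 ratio was 0.83.

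Cofactors divided by source. F5, the cofactor of factor Xa, had 20.9 TPM in replicate 1 and 2.21 TPM in replicate 2, with a ratio of 8.02 (6.51 to 9.97). F8, the cofactor of factor IX, was instead at 46.8 TPM in replicate 1, against 77.2 TPM in replicate 2, or 62.0 ± 21.5 TPM (mean ± SD, n = 2 here and below). On scaled counts its ratio was 0.813 (0.754 to 0.877), so the libraries were within 2-fold. VWF, which carries factor VIII and tethers platelets, had 61.9 and 82.7 TPM, with a ratio of 0.887 (0.847 to 0.929). F3, tissue factor, had 66.2 and 90.6 TPM, with a ratio of 0.964 (0.910 to 1.02). F5 and F8 are related proteins, and only F5 was past 2-fold between these libraries; the difference between them was not tested. TPM lay higher in replicate 2 for most genes, with a median log2 ratio over all names of -0.33 before centring, which the scaled ratios take out.

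Contact system genes held the highest member of the whole group in replicate 1. KNG1, which encodes kininogen, the carrier of plasma prekallikrein and source of bradykinin, had 7948 counts in replicate 1 and 211 in replicate 2, a ratio of 45.2 (39.4 to 52.0). Its 1172 TPM in replicate 1, against 25.4 TPM in replicate 2, came to 80.1% from 1 assembled gene of 446 bases, which held only 40.5% of the KNG1 counts. Without it, KNG1 had 233 TPM in replicate 1 and 7.05 TPM in replicate 2. F12, the contact factor that activates prekallikrein, had 40.9 and 1.49 TPM, with a ratio of 12.9 (10.01 to 16.9). KLKB1, plasma prekallikrein, was low in both libraries, with 89 counts in replicate 1 and 46 in replicate 2. Its scaled ratio was 2.32 (1.61 to 3.39), but its log2 ratio with the pseudocount was 0.93, just short of a call, and 1.18 with a pseudocount of 0.1. Its TPM went the other way, at 5.23 in replicate 1 and 6.87 in replicate 2. KLKB1 and F11 are closely related, and how reads of F11 were assigned was not tested.

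Factor XIII, the transglutaminase that crosslinks fibrin, has a catalytic A subunit from cells of the blood and tissue macrophages and a carrier B subunit from hepatocytes. F13B had 20.5 TPM in replicate 1 and 1.16 TPM in replicate 2, a ratio of 10.2 (7.22 to 14.7). F13A1 had 281 counts in replicate 1 and 395 in replicate 2, a ratio of 0.853 (0.729 to 0.996). F13B was therefore called and F13A1 was not. By summed TPM F13A1 was at 4.69 in replicate 1 and 13.8 in replicate 2. That would put it past 2-fold in the other direction, with a log2 ratio of -1.04. A short assembled gene of 207 bases, with 0 and 3 counts, supplied 35.2% of the F13A1 TPM of replicate 2. The longest F13A1 entry, of 3110 bases, held 97.9% and 95.3% of the counts. Its TPM values were closer, 3.73 for replicate 1 against 5.75 for replicate 2. Macrophage markers, all 10 found and led by C1QC and C1QA, summed to 344 TPM in replicate 1, against 397 TPM in replicate 2. Platelet and megakaryocyte markers, 6 of 12 found and led by NRGN and PF4, summed to 24.4 and 39.1 TPM. Their part in the F13A1 values was not tested.

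**Figure D3:**
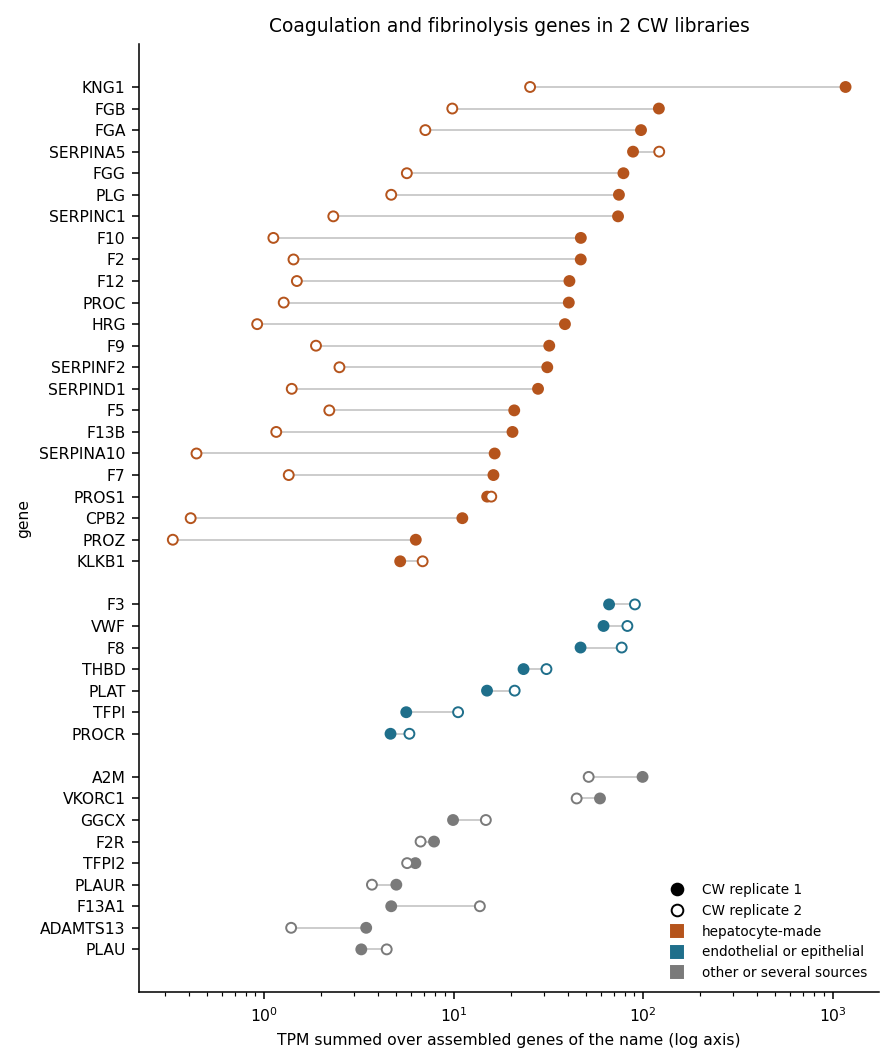
Each row is a gene, with TPM summed over its assembled genes on a log axis, a filled point for CW replicate 1 and an open point for CW replicate 2, coloured by source class. KNG1 is highest in replicate 1 at 1172 TPM, and SERPINA5 is highest in replicate 2 at 122 TPM.

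Among inhibitors of thrombin and factor Xa, 4 of 7 genes were over 2-fold higher in replicate 1, against 5.16% of all names tested. SERPINC1 encodes antithrombin, the main plasma inhibitor of thrombin, and had 73.8 TPM in replicate 1 and 2.32 TPM in replicate 2, a ratio of 42.8 (34.7 to 53.5). SERPIND1, heparin cofactor II, had 27.9 and 1.40 TPM, with a ratio of 50.8 (31.1 to 89.4) that rested on 16 counts in replicate 2. Of its TPM in replicate 2, 74.3% came from 1 assembled gene of 238 bases with 1 count. On the log2(CPM + 1) scale KNG1 was the highest at 5.37, against 4.51 for SERPIND1. SERPINA10, which inhibits factor Xa together with protein Z, had 16.5 and 0.44 TPM, with a ratio of 9.15 (5.65 to 15.6). PROZ, protein Z itself, had 166 counts in replicate 1 and 8 in replicate 2, a ratio of 24.9 (12.3 to 58.6). SERPINA5, the protein C inhibitor, did not follow these plasma inhibitors. It had 88.6 TPM in replicate 1 and 122 TPM in replicate 2, from 1670 and 1900 counts, a ratio of 1.05 (0.986 to 1.13). In replicate 2 it was the highest of the 39 genes and made up 56.0% of the hepatocyte-made TPM, against 4.17% in replicate 1. In humans SERPINA5 is made by liver and by several other tissues. The Kunitz-type inhibitors were low in both libraries. TFPI, which blocks tissue factor with factor VIIa, was at 8.10 ± 3.49 TPM from 21 and 31 counts. It was found only as assembled genes of 499 and 245 bases. The shorter held 45.1% of TFPI TPM in replicate 1 and 54.1% in replicate 2. TFPI2, which inhibits plasmin and related proteases, was at 5.99 ± 0.42 TPM.

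The protein C pathway, which inactivates factors V and VIII, was called for the proenzyme alone. PROC, protein C, had 40.6 TPM in replicate 1 and 1.27 TPM in replicate 2, from 580 and 14 counts, a ratio of 49.7 (29.4 to 91.4). Its cofactor PROS1, protein S, had 1329 counts in replicate 1 and 1274 in replicate 2, a ratio of 1.25 (1.16 to 1.35), and was at 15.4 ± 0.54 TPM. Protein S is made by hepatocytes and also by endothelium and megakaryocytes. THBD, the endothelial thrombin receptor that starts protein C activation, had 23.4 and 30.9 TPM, with a ratio of 0.955 (0.887 to 1.03). PROCR, which presents protein C to thrombomodulin, was at 5.25 ± 0.85 TPM, with a ratio of 0.956 (0.667 to 1.36). The 3 genes besides PROC were thus within 2-fold between the libraries.

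In the plasminogen system, the zymogen and its activators divided in the same manner. PLG had 74.6 TPM in replicate 1 and 4.69 TPM in replicate 2, a ratio of 27.3 (22.3 to 33.7). PLAT, the tissue activator made by endothelium, was at 18.0 ± 4.24 TPM, with a ratio of 0.948 (0.816 to 1.10). PLAU, the urokinase activator, was at 3.85 ± 0.83 TPM, and its receptor PLAUR at 4.35 ± 0.91 TPM, with ratios of 0.990 (0.806 to 1.22) and 1.48 (1.10 to 1.995). Of the PLG assembled genes, 1 of 638 bases did not share the high ratio of the others, with 19 counts in replicate 1 and 25 in replicate 2. It held 67.6% of PLG TPM in replicate 2 and 2.81% in replicate 1.

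Inhibitors of fibrinolysis were over 2-fold higher in replicate 1 for 3 of 4 genes, against 5.16% of all names tested. SERPINF2, the plasmin inhibitor antiplasmin, had 31.2 TPM in replicate 1 and 2.50 TPM in replicate 2, a ratio of 11.1 (8.34 to 15.0). CPB2, a carboxypeptidase that removes the plasminogen binding sites of fibrin, had 323 counts in replicate 1 and 8 in replicate 2, a ratio of 48.4 (24.3 to 113). HRG, a histidine-rich plasma protein that binds heparin and plasminogen, had 38.7 and 0.92 TPM, with a ratio of 44.9 (27.4 to 79.0). A2M, a broad protease inhibitor, was the exception, with 5610 counts in replicate 1 and 5095 in replicate 2 and a ratio of 1.32 (1.27 to 1.37). Its summed TPM were further apart, at 99.4 and 51.7, a plain ratio of 1.92. Taken with a pseudocount of 1 and less the median of all names, its log2 ratio by TPM was 1.26. The assembled gene of 6618 bases, with 98.2% of the A2M counts in replicate 1, was at 45.2 TPM in replicate 1, against 45.3 TPM in replicate 2, and shorter assembled genes made up the rest.

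Genes of the vitamin K cycle work inside the cell. GGCX, the carboxylase that modifies the vitamin K-dependent factors, was at 12.4 ± 3.44 TPM, with a ratio of 0.905 (0.838 to 0.979). VKORC1, the reductase that regenerates vitamin K and is blocked by warfarin, had 59.3 TPM in replicate 1 and 44.6 TPM in replicate 2, with a ratio of 1.92 (1.69 to 2.18) and a log2 ratio of 0.91. Both enzymes were within 2-fold by this measure, whereas all 4 vitamin K-dependent proenzymes of the clotting cascade were called. F2R, the thrombin receptor, was at 7.29 ± 0.84 TPM. ADAMTS13, the protease that trims von Willebrand factor, had 174 counts in replicate 1 and 112 in replicate 2, a ratio of 1.86 (1.46 to 2.38). By summed TPM, at 3.46 and 1.39, the log2 ratio of ADAMTS13 was 1.23, again with a pseudocount of 1 and less the median of all names.

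The called hepatocyte-made factors differed among themselves by more than counting error. Ratios over 40-fold were measured for 7 genes (SERPINC1, F2, HRG, KNG1, CPB2, PROC and SERPIND1), from 42.8 to 50.8. Another 7 genes (FGG, FGB, FGA, F9, PROZ, PLG and F10) lay between 16.0 and 35.0, and 5 genes (F5, SERPINA10, F13B, SERPINF2 and F12) between 8.02 and 12.9. These groups follow the point ratios, and their intervals overlap: CPB2 (24.3 to 113) and HRG (27.4 to 79.0) overlapped F10 (24.6 to 51.5). The order also depends on the measure, since SERPINA10 had a TPM ratio of 37.5 against 9.15 by counts. The intervals of F5 (6.51 to 9.97) and KNG1 (39.4 to 52.0) did not overlap. Assembled genes of KNG1 with at least 100 summed counts themselves ranged from 16.0 to 74.3 where a ratio could be formed. Spread between animals could not be measured for these ratios. Of the 10 genes with the highest TPM, 7 were hepatocyte-made and 2 endothelial or epithelial in replicate 1, while in replicate 2 there were 3 and 5. Across the 23 hepatocyte-made factors, TPM in the libraries had a Spearman rho of 0.54; it was 0.79 over the 20 called ones, which leaves out SERPINA5, PROS1 and KLKB1. Across the 7 endothelial or epithelial factors the order was identical. These are descriptions across genes of the same libraries.

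The marker lists give a scale for these ratios. Over all names tested, 5.16% were over 2-fold higher in replicate 1. The 23 hepatocyte-made factors had a median ratio of 20.1, and hepatocyte markers had one of 38.0, with 18 of 18 genes over 2-fold higher in replicate 1. The endothelial or epithelial factors had a median ratio of 0.948, and general endothelial markers, led by EGFL7 and CLDN5, had one of 0.913 with 0 of 11 genes over 2-fold apart. Liver sinusoidal endothelium markers, led by LYVE1 and CLEC4G, were over 2-fold higher in replicate 1 for 4 of 6 genes; STAB1 had 31.8 TPM in replicate 1 and 4.34 TPM in replicate 2, and CLEC4G had 60.4 and 3.94 TPM. The other 2 were within 2-fold: LYVE1 had 28.8 and 37.95 TPM, with a ratio of 0.953, and MRC1 had 16.3 and 21.5 TPM, with a ratio of 1.22. F8 was at 0.813, and the medians of the general endothelial, lung epithelium, smooth muscle and platelet lists were also below 1. The cell source of F8 was not tested. Lung epithelium markers had a median ratio of 0.857, smooth muscle markers (led by TAGLN and ACTA2) 0.947 and macrophage markers 1.09. Of the 10 macrophage markers, 2 were over 2-fold higher in replicate 1: MARCO, with 366 counts in replicate 1 and 22 in replicate 2, and CD5L, with 43 and 2 counts. No marker found was at 0 counts in either library. SOX17, CLEC4M and FCN3 matched no assembled gene by name, nor did platelet genes such as GP1BA, GP5, GP6 and GP9. The part of other cell types in the coagulation values was not tested.

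**Figure D4:**
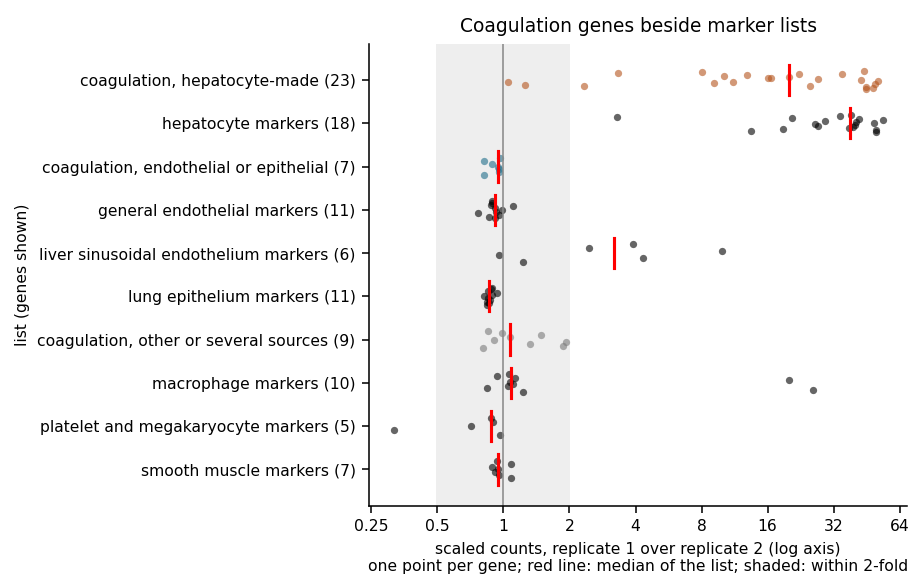
Points give the scaled count ratio of replicate 1 over replicate 2 for each gene on a log axis, by list, with a red line at the median and a shaded band for ratios within 2-fold. The hepatocyte-made factors (median 20.1) lie toward the hepatocyte markers (median 38.0). The endothelial or epithelial factors (0.948) lie beside the general endothelial markers (0.913) and the smooth muscle markers (0.947).

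Most members were spread over several assembled genes, which can split the reads of near-identical copies. The number of assembled genes for each member ranged up to 9, with 10 members on 1 each, and their best protein matches came from 12 species, led by Homo sapiens with 42 and Bos taurus with 26. Of 48 assembled genes with at least 100 summed counts, 31 belonged to hepatocyte-made factors. Of these, 28 had a ratio without pseudocount over 2, against 5.36% of all 15597 assembled genes with as many counts. The 28 leave out a KNG1 gene of 584 bases with 101 and 0 counts, a kind that the 5.36% includes. They include KLKB1 (2.32) and the F7 gene of 1830 bases (2.12), which were not called with the pseudocount. The 8 that belonged to endothelial or epithelial factors were all within 2-fold, where 5.53% of all such assembled genes were over 2-fold apart. Counts in replicate 1 and 0 in replicate 2 were found for 22 of the 111 assembled genes (19.8%), against 9.46% of all assembled genes. The reverse held for 3 (2.70%), against 3.20% of all. The 22 were 201 to 649 bases long with at most 101 counts, and 17 were of hepatocyte-made factors, 4 of A2M and 1 of ADAMTS13. Among assembled genes with at least 100 summed counts, those of 1 name differed by over 4-fold in ratio for FGG and KNG1; entries with fewer counts, such as the PLG gene of 638 bases, also stood apart from others of their name. FGG had a gene of 3431 bases with a ratio of 15.2 (13.5 to 17.2) and a gene of 818 bases with 217 counts in replicate 1 and 2 in replicate 2, a ratio of 130 (35.6 to 1081). For KNG1, the gene of 4051 bases had a ratio of 16.0 (12.96 to 19.9) and that of 1379 bases a ratio of 74.3 (56.8 to 99.2). In 9 assembled genes of F2, F5, F10, FGA, FGG and SERPINC1 both libraries were listed at 0, and for 8 of them the best match was to mouse.

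**Figure D5:**
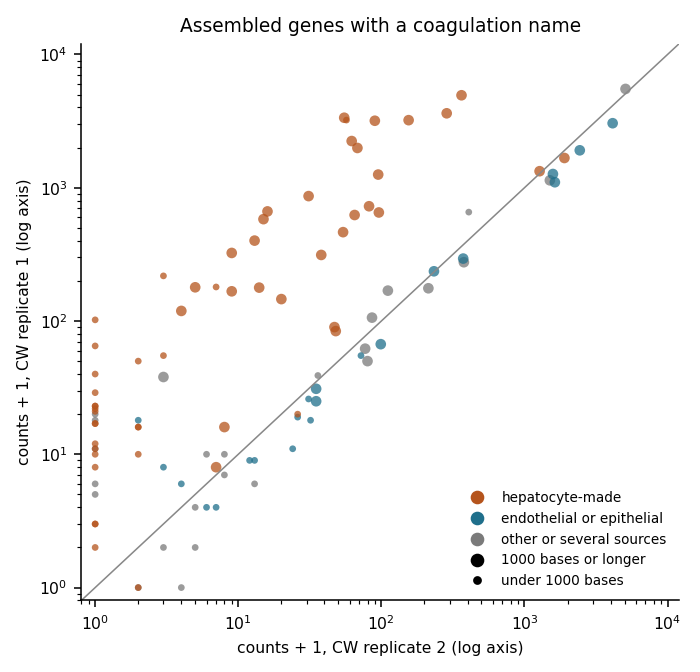
Each point is an assembled gene with a coagulation name, with counts + 1 in CW replicate 1 on the vertical log axis and in CW replicate 2 on the horizontal log axis, and larger points for lengths of at least 1000 bases. The diagonal marks equal counts. Points of hepatocyte-made factors lie mostly above the diagonal, and those of endothelial or epithelial factors lie along it.

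Other genes of hemostasis came from a list of 45 symbols, of which 36 were found and 35 tested. There were 10 (28.6%) over 2-fold higher in replicate 1, against 5.16% of all names tested, and 0 lower, against 0.0266%. The median log2 ratio was 0.08. APOH, a phospholipid-binding plasma protein, had 171 TPM in replicate 1 and 5.67 TPM in replicate 2, and VTN (vitronectin), an adhesive plasma protein, had 100.04 and 4.61 TPM. FGL1 had 35.5 TPM in replicate 1 and 3.46 TPM in replicate 2, HABP2 12.2 and 0.43 TPM, HGFAC 35.5 and 4.91 TPM, and the scavenger receptor STAB2 12.8 and 5.46 TPM. These were the genes past 2-fold with a mean of at least 10 CPM. They include plasma proteins made by hepatocytes, and APOH and VTN are also in the hepatocyte marker list.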

How the data were processed

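RNA with poly(A) tails from 2 libraries labelled liver was sequenced, per the labels' protocols. The authors deposited expected counts, which carry decimals, for 55378 assembled genes with Trinity names; they were rounded to whole numbers here. A second deposited column without a stated unit was read as TPM because it summed to 996837 and 996239. Trimming with cutadapt 1.9 is named in the submitters' processing notes, which also list a mouse build for replicate 1; the assembler's version and the quantifier are not given in the sources used here. Names are best Swiss-Prot matches from the tables; 38 of 40 symbols were in the RefSeq table of ASM189008v1. Names without a match held 8.70% and 9.69% of counts and stayed out of the ratios, but not of the library sizes.

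Counts and TPM were summed per upper-cased name. TMM factors (edgeR 4.0.16, R 4.3.3) on all assembled genes were 0.9096 and 1.0993. Ratios of log2(CPM + 1) used names with a mean of at least 1 CPM, less their median. Ratio intervals are exact conditional binomial at 95%. The source classes follow general knowledge of where each factor is made. Members and lists were chosen with earlier results of these data known. All members are named, with library values or a mean and SD where the mean was at least 10 TPM. Further genes were named where over 2-fold apart at a mean of at least 10 CPM, at most 8, and marker genes as the highest 2 of a list. KLKB1, F7 and others under 10 TPM, STAB1, CLEC4G, MRC1, MARCO and CD5L are given values after these were seen. Alternatives were another pseudocount, other filters, DESeq2 1.42.0 size factors, library size scaling, 1 assembled gene for each name, TPM in place of counts, and leaving out each replicate. Some listed genes are not reported here. The ratio procedure was tested on simulated data. Python 3.11.15 was used, with the packages scipy 1.17.1, pandas 2.3.3, numpy 2.4.6 and matplotlib 3.10.9.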

Additional observations from a re-analysis of the deposited data

How the results depend on the processing

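The count of members over 2-fold apart was 20 and lay between 15 (of 27 tested at a mean of at least 10 CPM) and 23 (by summed TPM, of which 22 were higher in replicate 1) under its alternatives. By TPM, taken with a pseudocount of 1 and less the median of all names, A2M (1.26), ADAMTS13 (1.23) and F13A1 (-1.04) passed 2-fold. The plain TPM ratio of A2M was 1.92. KLKB1 passed with a pseudocount of 0.1 (1.18), and F7 did not with 1 assembled gene for each name (0.83). Short assembled genes held part of the TPM of A2M and F13A1, as given above. What else moved these values was not tested. The median log2 ratio of hepatocyte-made factors, 3.83, was 4.29 with a pseudocount of 0.1 and, with only names averaging 10 CPM or more (17 factors tested), 4.22. That of endothelial or epithelial factors was -0.32 with library size scaling, under which all names have a median of -0.24. Names over 2-fold apart numbered 586, but 343 among the fewer names averaging 10 CPM or more, and 1122 by TPM. Without each replicate in turn, summed member TPM ranged from 683 to 2546 and the hepatocyte-made share from 31.8% to 83.4%. Leaving out KNG1 and fibrinogen gave shares of 60.7% in replicate 1 and 26.7% in replicate 2. Leaving out the KNG1 assembled gene of 446 bases, gave 73.7% and 29.9%, and leaving out SERPINA5 82.8% and 17.0%; both were chosen after seeing the data. No paired analysis was possible because both libraries belong to 1 group. Low counts limit TFPI in both libraries. In replicate 2 they also limit CPB2 and PROZ (8 each), F9 and PROC (14 each), SERPIND1 and HRG (16 each) and SERPINA10 (19). The spread between animals is unknown.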

Other observations

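Protein families of the authors' Pfam annotation cut across the source classes. Over all names tested, 5.16% were over 2-fold higher in replicate 1. The trypsin family was annotated for 11 members, of which 8 were over 2-fold higher in replicate 1. The summed level of the 11 members was 328 TPM in replicate 1, against 45.9 TPM in replicate 2. PLAT, PLAU and KLKB1 were not called. KLKB1 had a ratio of 2.32 without pseudocount, but a log2 ratio of 0.93 with it. The serpin family was annotated for 5 members, of which 4 were over 2-fold higher, with SERPINA5 as the exception. The cystatin family was annotated for HRG and KNG1, whose ratios were 44.9 and 45.2.

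Several cell surface, secreted and secretory pathway genes of hemostasis were within 2-fold between the libraries on scaled counts. ANXA2 and S100A10, which form a plasminogen receptor, had 230 and 348 TPM in replicate 1 and 351 and 541 TPM in replicate 2. LMAN1 and MCFD2, which carry factors V and VIII out of the endoplasmic reticulum, had 12.2 and 47.0 TPM in replicate 1 and 18.3 and 24.3 TPM in replicate 2. C4BPA and C4BPB, subunits of the plasma protein that binds protein S, had 65.9 and 43.7 TPM in replicate 1 and 89.6 and 52.0 TPM in replicate 2. The genes of this paragraph were picked with their values in view.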
